A study of Mus musculus with 30 samples.

Results

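Pvr, Nectin1, Nectin2, Nectin3, Nectin4 and Cadm1 code for nectins and nectin-like proteins, the adhesion molecules that include the ligands of DNAM-1, TIGIT, CD96 and CRTAM. These 6 genes were taken by symbol, without regard to their values, from the 48440 genes counted in 30 mouse tumors, and 5 of the 6 passed the filter on low counts that left 16862 genes for testing. Nectin2 was nearly lost in 1 tumor line, MCA-972, at 2.29 ± 0.727 CPM (counts per 1e+06, a gene's reads, scaled by the depth of the library with TMM; SD, n = 4) against 20.9 to 34.6 CPM in the other lines. Nectin3 spanned 18.1 to 85.5 CPM and separated all 5 lines without overlap. Pvr and Nectin1 differed by at most 2.09-fold and 2.29-fold between line means, and Nectin4 and Cadm1 were barely expressed.

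Nectins are single-pass membrane proteins of the immunoglobulin superfamily. They bind one another across neighbouring cells and are tied to actin by afadin, and so take part in cell junctions. PVR (also called CD155) and nectin-2 are read by lymphocytes through DNAM-1, an activating receptor of NK and T cells coded by Cd226, and through TIGIT, an inhibitory receptor that competes for the same ligands. CD96 binds PVR and, in mice, nectin-1. CRTAM, a receptor of activated NK and T cells, binds CADM1. PVR is commonly raised on transformed and stressed cells, and the loss of DNAM-1 ligands can lower killing by NK cells.

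The tumors were methylcholanthrene (MCA)-induced fibrosarcomas, transplanted under the skin of C57BL/6 mice as 5 primary cell lines that had each been derived from 1 carcinogen-induced tumor. The study grew its lines in mice with and without an antibody that depletes NK1.1+ cells. The labels do not say whether any of the sequenced tumors came from depleted mice. There were 4 tumors of MCA-943, 8 of MCA-948, 8 of MCA-969, 6 of MCA-970 and 4 of MCA-972. The study classed MCA-943 and MCA-969 as non-sensitive and MCA-948, MCA-970 and MCA-972 as sensitive to NK1.1+ cells. CD45+ blood cells were depleted with magnetic beads before RNA was extracted, so the libraries stand for what remained: tumor cells, stroma and residual leukocytes. Beside growth in C57BL/6 mice, the labels give a mouse strain, Ncr1Cre for MCA-943 and Ncr1Cre R26DTA for the rest. They do not say whether this is the mouse in which the primary tumor arose, for which the study used both genotypes, or the recipient. In Ncr1Cre R26DTA mice the Ncr1 promoter drives Cre in NKp46+ cells, which then make diphtheria toxin A. The letters W and a in the titles are not explained in the sources used here, MCA-972 2G has neither letter, and ages are not given. MCA-969 W-1D and W-2D carry a sensitive label against that of their line, and they were kept with their line. Each line is a single derivation, so n counts tumors and not independent lines.

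Total counts ranged from 27745104 to 46537062 per tumor. All 8 fibroblast and sarcoma markers (Col1a1, Vim, Thy1 and others) reached a mean of at least 1 CPM in every line, with sums of 14422 to 75861 CPM per tumor, whereas the 8 leukocyte markers summed to between 7.09 and 149 CPM. Endothelial markers summed highest in MCA-970, at 263 to 508 CPM, with 21.6 to 460 CPM in the other lines. Epithelial markers summed highest in MCA-969, at 352 to 1192 CPM against 2.10 to 150 CPM elsewhere. Most of the MCA-969 sum was Krt8 and Krt18, with means of 385 and 255 CPM. Only 4 of the 9 epithelial markers reached a mean of 1 CPM there, and Cdh1 was lowest of the 5 lines, at 0.318 CPM. Bulk RNA cannot tell fewer cells of a type from less RNA per cell, and the part of these markers in the differences below was not tested except where the leukocyte score entered the fit. The numbers in the sample descriptions form 3 runs of close numbers, the third with gaps. The first run holds 4 MCA-972 and 6 MCA-969 tumors. The second holds 6 MCA-970 tumors and 2 each of MCA-948 and MCA-969, and the third holds 6 MCA-948 and 4 MCA-943 tumors.

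Nectin2 and Pvr lie close together on the reverse strand of chromosome 7, at chr7:19716644-19750483 and chr7:19903578-19921160 (GRCm38, GENCODE M21). Nectin1 (chr9:43743984-43807461) and Cadm1 (chr9:47530173-47857637) are on the forward strand of chromosome 9, Nectin3 is on the reverse strand of chromosome 16 (chr16:46387706-46498525) and Nectin4 on the forward strand of chromosome 1 (chr1:171370099-171388598). All 6 are protein-coding. The antisense gene Gm20512 overlaps the end of Nectin2, and Gm16184 and Gm16251 overlap Pvr on the opposite strand. Whether the counting used strand is not given in the sources used here, so reads of such pairs may not be separable. Of the 6 genes, Nectin2, Nectin3 and Nectin4 had an entry in the RefSeq promoter table used here (build GRCm38.p6). The 250 bases before the RefSeq start of Nectin2 and of Nectin3, the 2 with the most calls between lines, are shown 5′ to 3′ on the gene's strand, with GC boxes in capitals (the letters GGGCGG, also searched as CCGCCC on the other strand).
Nectin2, chr7:19749574-19749823, reverse strand: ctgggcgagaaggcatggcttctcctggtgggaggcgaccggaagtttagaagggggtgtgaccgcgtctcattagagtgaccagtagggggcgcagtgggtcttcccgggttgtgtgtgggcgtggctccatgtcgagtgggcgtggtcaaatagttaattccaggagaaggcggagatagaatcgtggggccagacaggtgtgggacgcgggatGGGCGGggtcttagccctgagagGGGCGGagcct
Nectin3, chr16:46496968-46497217, reverse strand: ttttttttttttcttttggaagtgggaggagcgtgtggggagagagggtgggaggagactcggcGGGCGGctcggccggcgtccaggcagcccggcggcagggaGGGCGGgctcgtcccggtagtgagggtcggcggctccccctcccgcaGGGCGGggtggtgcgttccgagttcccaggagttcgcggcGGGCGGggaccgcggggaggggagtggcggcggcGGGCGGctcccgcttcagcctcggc
The Nectin2 window held 16 CpG dinucleotides, 62.0% G and C and 2 GC boxes, and the Nectin3 window 30 CpG dinucleotides, 73.2% G and C and 5 GC boxes. The window of Nectin4, the near-silent gene, held 3 CpG dinucleotides, 54.4% G and C and no GC box. The median over 32851 promoters of this length was 6 CpG dinucleotides, and 32.7% of them held a GC box. Neither CCAAT nor TATAAA, searched on both strands and present in 33.8% and 12.4% of all promoters, was in any of the 3 windows. The Nectin2 and Nectin3 windows lie inside the GENCODE spans given above, downstream of the outermost GENCODE start, so the 2 annotations place the starts differently. These window contents are descriptions of the reference sequence, which is the same for every line, and no methylation or binding was measured.

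PVR, the main shared ligand of DNAM-1, TIGIT and CD96, was expressed in every tumor. The Pvr levels of the MCA-943 tumors were 36.6, 40.7, 42.0 and 45.1 CPM, and those of the MCA-972 tumors were 44.5, 54.6, 56.9 and 63.3 CPM. MCA-948 tumors ranged from 63.8 to 80.7 CPM (median 71.2), MCA-969 tumors from 58.4 to 94.6 CPM (median 64.1) and MCA-970 tumors from 66.7 to 122 CPM (median 80.1). MCA-943 therefore lay lowest, below and without overlap with MCA-948, MCA-969 and MCA-970, and its highest tumor reached just into the range of MCA-972. In order of the means, MCA-970 (85.7 ± 19.5 CPM, n = 6), MCA-948 (70.7 ± 5.08, n = 8) and MCA-969 (70.4 ± 14.4, n = 8) overlapped with each other. They were followed by MCA-972 (54.8 ± 7.80, n = 4) and MCA-943 (41.1 ± 3.49, n = 4). The spread within MCA-970 came from tumor a-2G at 122 CPM and that within MCA-969 from W-R and W-2D at 94.6 and 92.0 CPM.

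Differences between lines were tested with edgeR's quasi-likelihood test over all 30 tumors, and a gene was called at an adjusted p (Benjamini-Hochberg, over all genes tested) under 0.05 together with a log2 fold change of 1 or more in either direction. Pvr was called in 1 of 10 line comparisons, MCA-943 against MCA-970, with a log2 fold change of -1.06 (SE 0.15, adjusted p = 3.58e-07). In that comparison 27.3% of all genes were called. The value fell short of the threshold without MCA-970 a-2G, at -0.93, and with the index set as a covariate, at -0.87. In 8 other comparisons Pvr had an adjusted p under 0.05 with log2 fold changes between -0.78 and 0.65, short of the threshold on size. MCA-948 and MCA-969 were the pair without such a p.

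Nectin2, the other ligand of DNAM-1 and TIGIT, showed the largest difference of the 6 genes between any pair of lines. The 4 MCA-972 tumors had 1.39, 2.01, 2.84 and 2.92 CPM of Nectin2, from 51, 77, 116 and 105 counts. MCA-943 tumors had 28.7, 32.2, 33.3 and 37.3 CPM, MCA-948 tumors 27.96 to 41.1 (median 34.6), MCA-970 tumors 27.7 to 39.8 (median 33.9) and MCA-969 tumors 17.7 to 27.1 (median 19.5). No MCA-972 tumor came near the range of another line. The ranges of MCA-943, MCA-948 and MCA-970 overlapped, with means of 32.9 ± 3.55, 34.6 ± 4.23 and 34.1 ± 4.15 CPM, and all MCA-969 tumors (20.9 ± 3.46 CPM, n = 8) lay below them.

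Nectin2 was called in the 4 comparisons with MCA-972, and the mean CPM was 14.3-fold higher in MCA-943, 15.1-fold in MCA-948, 9.13-fold in MCA-969 and 14.9-fold in MCA-970. On the log2 scale the fitted differences were 3.84 for MCA-943 minus MCA-972 (SE 0.18, edgeR adjusted p = 6.83e-16), 3.92 for MCA-948 (SE 0.18, adjusted p = 3.52e-17), 3.19 for MCA-969 (SE 0.17, adjusted p = 4.08e-15) and 3.89 for MCA-970 (SE 0.18, adjusted p = 2.48e-16). Among all genes, 25.6%, 26.8%, 20.6% and 17.6% were called in these comparisons. Only MCA-969 shared a run of description numbers with MCA-972, and within that run the log2 fold change was 3.06 (adjusted p = 9.82e-08). MCA-969 had less Nectin2 than MCA-943, MCA-948 and MCA-970, with log2 fold changes of 0.65 for MCA-943 minus MCA-969, 0.73 for MCA-948 minus MCA-969 and -0.70 for MCA-969 minus MCA-970 (edgeR adjusted p = 0.00013, 2.25e-06 and 1.16e-05), under the fold change threshold. Within the second run, which holds 2 MCA-969 tumors, these differences were smaller and missed an adjusted p of 0.05, at 0.44 for MCA-948 minus MCA-969 (adjusted p = 0.367) and -0.37 for MCA-969 minus MCA-970 (adjusted p = 0.0606). Within MCA-969, W-1D and W-2D, the 2 tumors of the second run and of the opposite label, had 27.1 and 25.2 CPM, above the other 6 at 17.7 to 21.2 CPM.

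**Figure D1:**
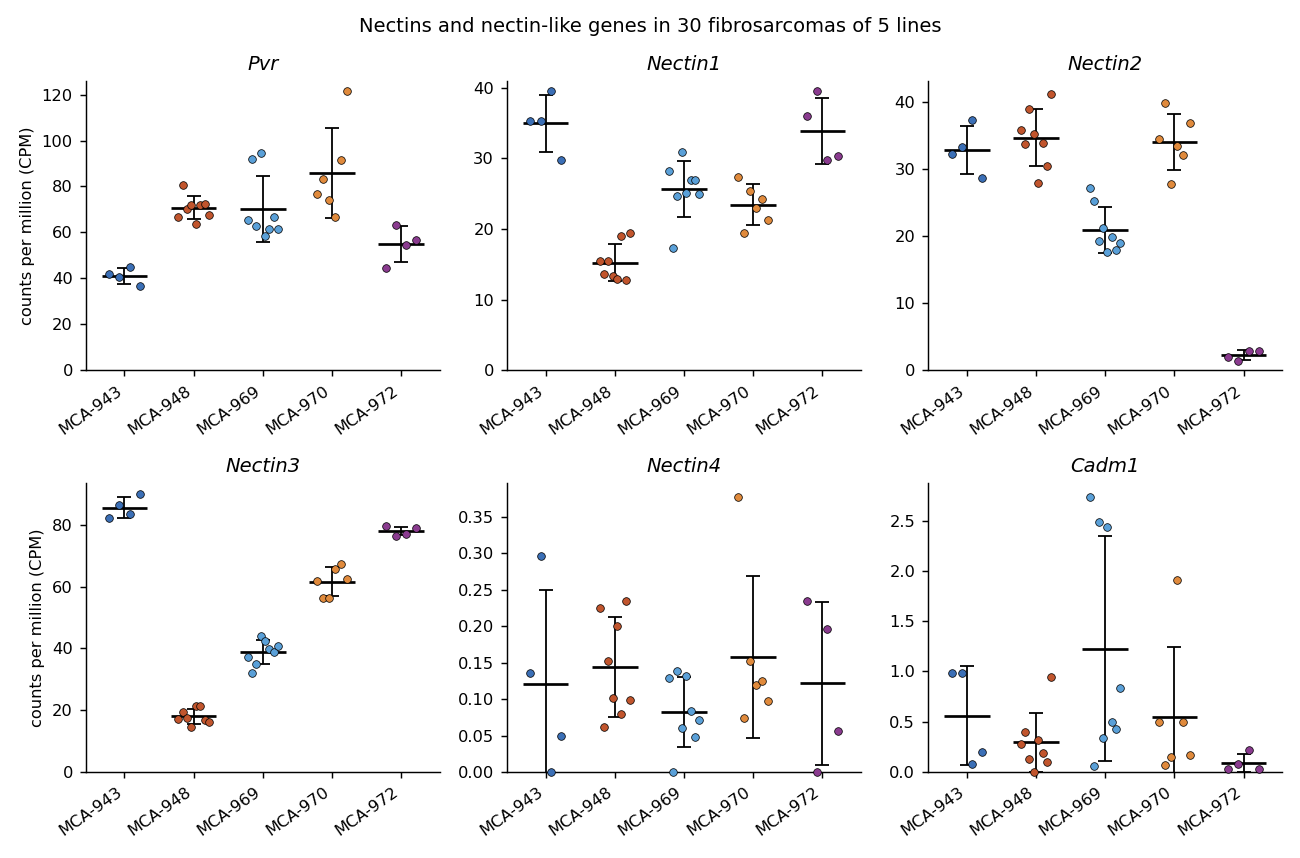
Levels of the 6 genes in CPM (linear axes from 0, a separate scale per gene), with 1 point per tumor, the line mean as a bar and the SD as the error bar. The 4 MCA-972 tumors lie at 1.39 to 2.92 CPM of Nectin2 while Nectin3 steps from 18.1 CPM in MCA-948 to 85.5 CPM in MCA-943 without overlap.

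A low level in MCA-972 was found for other genes too. Over all tested genes, 185 were called lower in MCA-972 than in each of the other 4 lines, and 18 of them by at least 3 on the log2 scale every time. Ranked by the weakest of its 4 differences, a log2 fold change of -3.19, Nectin2 was number 17. The 200 kb on either side of Nectin2 held 34 genes of the count table, of which 14 were tested, Nectin2 and Pvr included. Of these 14, 8 were called lower in MCA-972 in at least 1 comparison and 1, Nectin2, in all 4; of all genes tested, 24.4% were in at least 1 and 1.10% in all 4. These counts and the neighbouring genes named here were chosen after their values were seen. Tomm40, the next tested protein-coding gene downstream of Nectin2, had 43.9 CPM in MCA-972 and 50.4 to 111 CPM in the other lines. Bcam, the next one upstream, had 0.471 to 1.39 CPM over the 5 lines and was not called. Zfp296 was called lower in 3 comparisons, Relb in 2, and Gemin7, Clptm1, Tomm40, Gm20512 and Bcl3 in 1 each, while Gm26890 was called higher in 3. Relb had 17.9 CPM in MCA-972 and 34.3 to 38.6 CPM in the other lines. Clptm1 had 66.7 against 89.7 to 135 CPM, and Bcl3 14.2 against 20.1 to 31.5 CPM. These 3 genes had an edgeR adjusted p under 0.01 in all 4 comparisons, mostly short of the threshold on size. Pvr, 171 kb away, was not called, with 54.8 CPM in MCA-972. The antisense gene Gm20512 had 0.179 CPM in MCA-972 and 0.151 to 0.481 CPM in the other lines. The fall of Nectin2 was thus larger than that of any of its 13 tested neighbours, of which Zfp296 came closest with a log2 fold change of -3.09 against MCA-943.

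**Figure D2:**
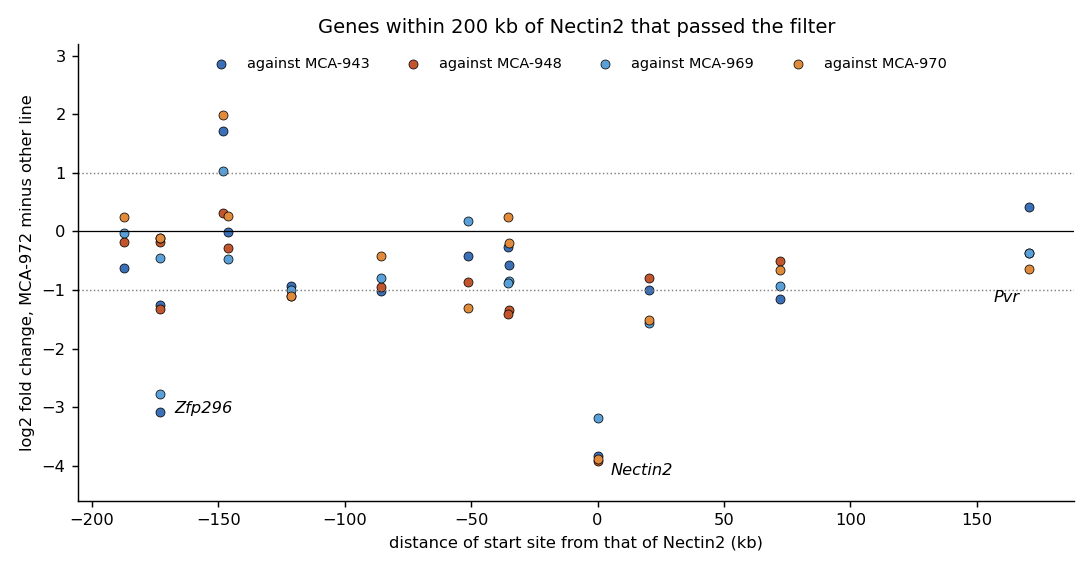
Log2 fold change of MCA-972 minus each of the 4 other lines (colours) for the 14 tested genes within 200 kb of Nectin2, against the distance of their start sites from that of Nectin2 in kb; dotted lines mark a log2 fold change of 1 in either direction. Nectin2, at 0 kb, lies between -3.19 and -3.92, and Pvr, at 171 kb, between -0.65 and 0.42.

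Nectin1 pairs with other nectins at junctions and is a ligand of CD96 in mice. Its levels were 29.7, 35.2, 35.3 and 39.6 CPM in the MCA-943 tumors and 29.7, 30.3, 36.0 and 39.4 CPM in the MCA-972 tumors. MCA-969 tumors ranged from 17.3 to 31.0 CPM (median 25.97), MCA-970 tumors from 19.4 to 27.4 (median 23.6) and MCA-948 tumors from 12.8 to 19.4 (median 14.5). MCA-943 and MCA-972 overlapped at the top, with means of 34.9 ± 4.04 and 33.9 ± 4.67 CPM. MCA-969 (25.6 ± 3.94 CPM) and MCA-970 (23.4 ± 2.88 CPM) overlapped in the middle, and MCA-948 (15.3 ± 2.65 CPM) was lowest. Neighbours in this order overlapped in each case. Tumor W-2D of MCA-969 was the one in that line to fall into the MCA-948 range.

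Nectin1 was called in 2 comparisons. It was lower in MCA-948 than in MCA-943 (log2 fold change 1.20 for MCA-943 minus MCA-948, SE 0.13, edgeR adjusted p = 1.45e-09) and than in MCA-972 (log2 fold change -1.15 for MCA-948 minus MCA-972, SE 0.13, adjusted p = 4.06e-09). The share of all genes called was 29.0% in the first comparison and 26.8% in the second. Within the third run of description numbers the first difference was again 1.20 (adjusted p = 1.01e-06). MCA-948 and MCA-972 share no run, and with the run as a covariate their difference was -0.85 (adjusted p = 0.0102), under the fold change threshold.

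Nectin3, which binds nectins and PVR across the gap between cells, varied little within lines and widely between them. The coefficient of variation within a line was 1.83% to 13.3%, against 7.19% to 22.8% for Pvr. The MCA-943 tumors had 82.1, 83.6, 86.5 and 89.9 CPM of Nectin3, and the MCA-972 tumors 76.5, 77.1, 78.9 and 79.5 CPM. MCA-970 tumors ranged from 56.2 to 67.2 CPM (median 62.1), MCA-969 tumors from 32.0 to 44.0 (median 39.3) and MCA-948 tumors from 14.7 to 21.4 (median 17.4). Every tumor of a line thus lay above every tumor of the next, in the order MCA-943, MCA-972, MCA-970, MCA-969 and MCA-948. The means were 85.5 ± 3.41, 78.0 ± 1.42, 61.6 ± 4.61, 38.8 ± 3.94 and 18.1 ± 2.41 CPM. Such a separation in all 10 pairs of lines was found for 27 of 16862 genes, or 0.160%.

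The test called Nectin3 in 6 of the 10 comparisons; 18.7% of all genes were called in at least 6. MCA-948 was lower than each other line, with log2 fold changes of 2.24 for MCA-943 minus MCA-948 (SE 0.08, edgeR adjusted p = 4.72e-19), -1.10 for MCA-948 minus MCA-969 (SE 0.07, adjusted p = 1.48e-13), -1.77 for MCA-948 minus MCA-970 (SE 0.08, adjusted p = 1.44e-17) and -2.11 for MCA-948 minus MCA-972 (SE 0.08, adjusted p = 2.41e-18). Of all genes, 29.0%, 20.8%, 29.4% and 26.8% were called there. Within the run that MCA-948 and MCA-969 share, with 2 tumors each, their difference was -1.08 and missed the threshold (adjusted p = 0.0948). MCA-969 was lower than MCA-943 (1.14 for MCA-943 minus MCA-969, SE 0.08, adjusted p = 1.59e-12, with 27.0% of all genes called) and than MCA-972 (-1.01 for MCA-969 minus MCA-972, SE 0.08, adjusted p = 4.26e-11). The last value was at the threshold, and it was between -0.99 and -0.97 when any of 5 tumors was left out (MCA-969 W-2G, W-1D or W-2D, MCA-972 2G or MCA-943 a-1G) and -0.96 within the run that both lines share (adjusted p = 3.39e-07). For MCA-969 minus MCA-970, where 21.4% of all genes were called, the value was -0.67 (adjusted p = 1.17e-08). MCA-943 minus MCA-970 and MCA-970 minus MCA-972 differed by 0.47 and -0.34 (adjusted p = 4.53e-05 and 0.00256). MCA-943 and MCA-972, the neighbours at the top, differed by 0.13, which missed the threshold (adjusted p = 0.261).

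**Figure D3:**
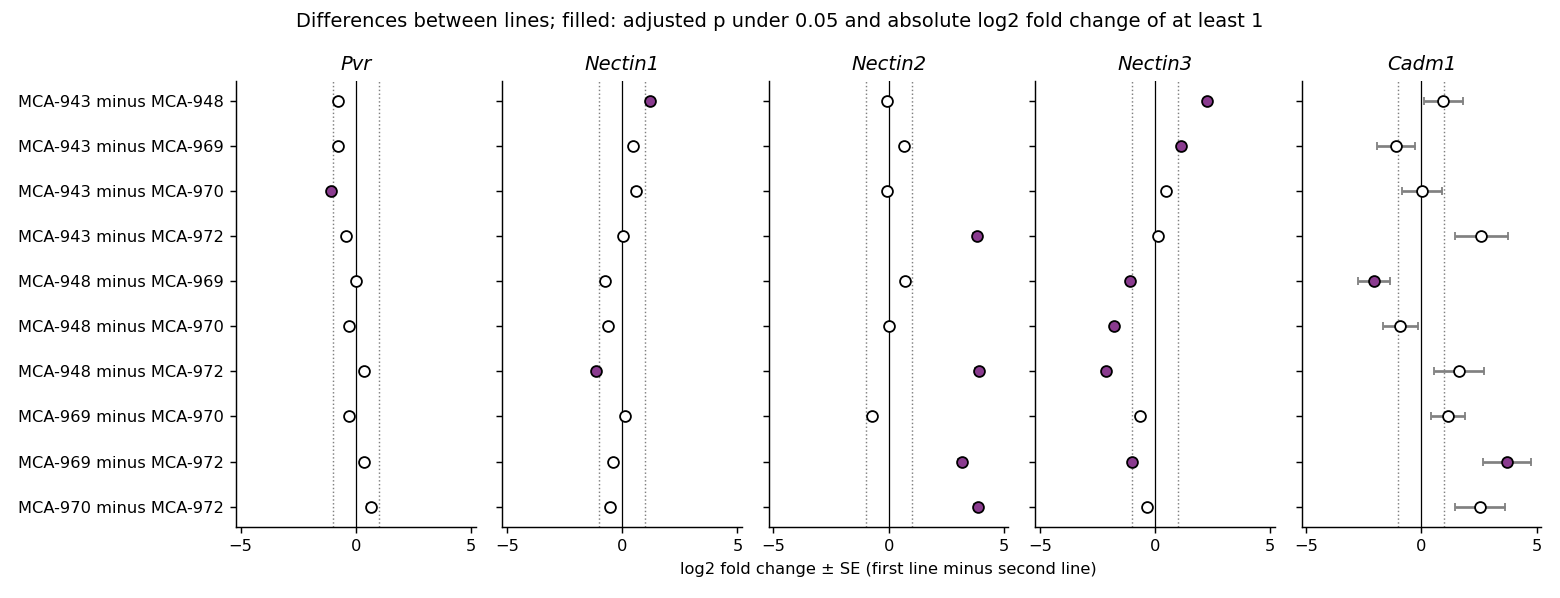
Log2 fold changes with their standard errors (first line minus second) for the 5 genes that passed the filter, in each of the 10 comparisons of lines; filled points were called and dotted lines mark a log2 fold change of 1 in either direction. Nectin2 is called in the 4 comparisons with MCA-972 and Nectin3 in 6, while Pvr is called in 1 and Nectin1 in 2.

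Cadm1, a nectin-like adhesion molecule and the ligand of CRTAM, was low and uneven. MCA-969 tumors ranged from 0.0619 to 2.73 CPM (median 0.671, 2 to 106 counts), with W-2G, W-1D and a-1D at 2.44 to 2.73 CPM and the other 5 at 0.0619 to 0.840 CPM. MCA-943 tumors had 0.0756, 0.196, 0.983 and 0.987 CPM. MCA-970 tumors ranged from 0.0736 to 1.91 CPM (median 0.331) and MCA-948 tumors from 0 to 0.950 CPM (median 0.230). MCA-972 tumors had 0.0261, 0.0278, 0.0819 and 0.220 CPM, from 1, 1, 3 and 9 counts. All pairs of lines overlapped. The fit called Cadm1 in 2 comparisons, MCA-948 minus MCA-969 (log2 fold change -2.07, SE 0.69, edgeR adjusted p = 0.0112) and MCA-969 minus MCA-972 (3.71, SE 1.06, adjusted p = 0.00411). Of all genes, 20.8% and 20.6% were called in these comparisons. The first Cadm1 difference missed the threshold with the run as a covariate (-1.46, adjusted p = 0.453) and with the title code as a replicate block (-1.52, adjusted p = 0.0567). The second also passed within the run the lines share (3.63, adjusted p = 0.0036). Leaving out MCA-948 a-R, MCA-969 W-2D, MCA-970 a-1D or MCA-972 a-1G raised its calls to 4.

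Nectin4, an epithelial nectin, had 0 to 13 counts per tumor and did not pass the filter. Its line means were 0.0827 to 0.157 CPM, and the lines overlapped in all 10 pairs. It was at 0 in 1 tumor each of MCA-943, MCA-969 and MCA-972, where a count of 0 allows up to 0.113, 0.0929 and 0.0819 CPM (3 counts, counting error only). Differences between lines in Nectin4 were not detectable at this depth.

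Over the 5 tested genes, 15 of 50 tests were called, and 24.5% of all tests of all genes were. Levels of different genes can be set side by side only per length, as CPM per kb of exon. On that scale Pvr and Nectin2 together stood at 16.1 ± 1.57 in MCA-943, 21.5 ± 1.48 in MCA-948, 17.5 ± 2.93 in MCA-969, 23.7 ± 3.82 in MCA-970 and 9.61 ± 1.25 in MCA-972 (SD over tumors). The 4 MCA-972 tumors, at 7.84 to 10.7 CPM per kb, lay below every other tumor, the lowest of which had 14.2. The level of Pvr over that of Nectin2 per length was 0.715 ± 0.0257 in MCA-943, where Nectin2 was the more abundant, 1.18 ± 0.159 in MCA-948, 1.94 ± 0.334 in MCA-969, 1.44 ± 0.289 in MCA-970 and 15.2 ± 7.21 in MCA-972. Nectin2 made up 31.5%, 38.1%, 23.2%, 29.3% and 2.95% of the summed level of the 6 genes in these lines, and Nectin3 22.6%, 5.50%, 11.9%, 14.6% and 27.3%. The summed level itself ran from 22.5 ± 1.45 CPM per kb in MCA-972 to 33.3 ± 3.57 in MCA-970. These sums are descriptions and were not tested.

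**Figure D4:**
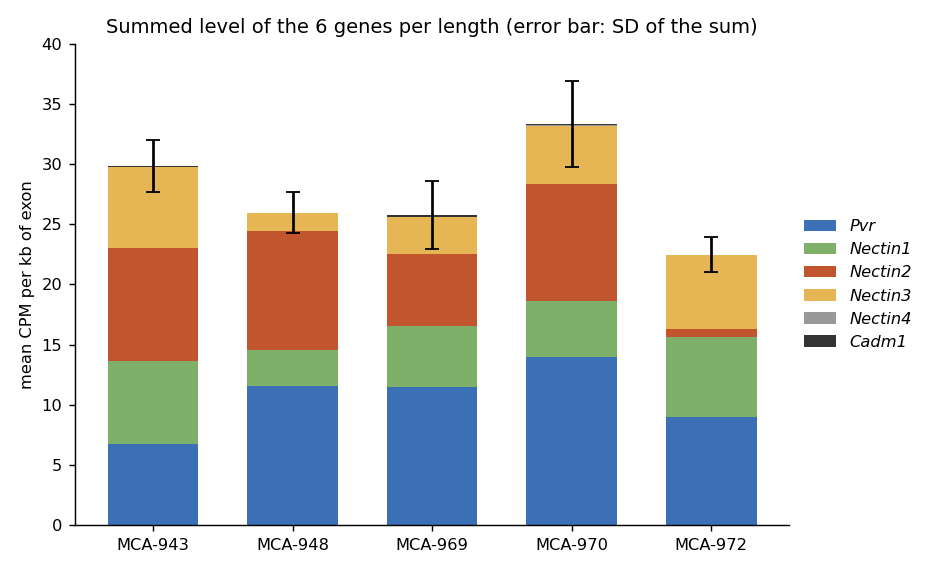
Mean level of each of the 6 genes per length, in CPM per kb of exon, stacked for the 5 lines; the error bar is the SD of the sum over tumors. The Nectin2 layer is 0.655 CPM per kb in MCA-972 and 5.99 to 9.92 in the other lines, and Nectin4 and Cadm1 are too thin to read.

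The study's question was what sets sensitive lines apart from non-sensitive ones. None of the 6 genes was called in one direction across the 6 comparisons that pair lines of different class, which 0.878% of all genes were. The order of the lines mixed the classes for Pvr, Nectin1, Nectin2 and Nectin3. Nectin3 was highest in the non-sensitive MCA-943 and next in the sensitive MCA-972, and Pvr was lowest in MCA-943 and next lowest in MCA-972. Nectin2 was lowest in a sensitive line and next lowest in a non-sensitive one. The 2 genes of few counts did separate by mean, with Cadm1 highest and Nectin4 lowest in both non-sensitive lines, although their tumors overlapped. The margins were far smaller than the SD. Cadm1 had 0.560 ± 0.493 CPM in MCA-943 and 0.550 ± 0.692 CPM in the sensitive MCA-970. Nectin4 had 0.120 ± 0.130 CPM in MCA-943 and 0.121 ± 0.112 CPM in the sensitive MCA-972. On the log2 CPM scale, the mean of the non-sensitive lines minus that of the sensitive lines was -0.36 for Pvr, 0.38 for Nectin1, 0.92 for Nectin2, 0.38 for Nectin3, -0.38 for Nectin4 and 1.34 for Cadm1. The two-sided exact permutation p over the 5 line means was 0.4, 0.4, 1, 0.8, 0.2 and 0.2 in the same order. With 2 lines against 3 the smallest p possible is 0.1, so no difference could have passed 0.05, and the test cannot show that the classes are alike.

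The title letters W and a split the 26 lettered tumors of MCA-943, MCA-948, MCA-969 and MCA-970 into 12 and 14. Within lines, no member was called between W and a, with log2 fold changes from -0.28 (Cadm1) to 0.12 (Nectin2). Nectin3 had the lowest p of them, with W minus a at -0.14 (SE 0.06, unadjusted p = 0.0205, edgeR adjusted p = 0.547). Only 38 of 16557 genes, 0.230%, were called in this comparison. They included receptors of these ligands. Cd96 was detected in all 12 W tumors, at 0.0253 to 1.46 CPM, and was at 0 in 7 of the 14 a tumors, with up to 0.567 CPM in the rest (W minus a 3.28, SE 0.49, adjusted p = 0.000413). Tigit had 0.110 to 3.37 CPM in W tumors and 0.0598 to 0.805 CPM in a tumors (1.27, SE 0.27, adjusted p = 0.0287). All Cd96 values were of 43 counts or fewer, and the gene did not pass the filter without MCA-970 W-1D or without MCA-970 W-R. The Tigit value missed the threshold, at 1.04 to 1.26 with adjusted p of up to 0.0718, without MCA-948 W-1D or a-2D, without MCA-969 a-1D, a-R or W-2D, or without any MCA-970 tumor except W-2D. It also missed it with limma-voom (1.10, adjusted p = 0.0647). In edgeR it did so with the run as a covariate (1.10, adjusted p = 0.121) and with the title code as a replicate block (1.27, adjusted p = 0.0959). The 8 leukocyte markers summed to a median of 22.9 CPM (7.09 to 149) in W and 30.5 CPM (8.57 to 114) in a tumors, and the 8 T cell markers to 1.849 and 1.503 CPM. Of 10 NK cell and ILC1 markers, 8 were called higher in W and 0 lower, and Ncr1 was detected in all 12 W tumors but was at 0 in 11 of the 14 a tumors. Without MCA-943 W-2G, the only W tumor of its line, the count was 5, and without any other single tumor it was 7 or 8. The part of NK cells in the receptor differences was not tested. Since the meaning of the letters is not given here, the comparison names no condition.

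Receptor RNA was scarce after the removal of CD45+ cells. Cd226, coding for DNAM-1, had at most 13 counts and was at 0 in 15 of 30 tumors, and Pvrig, coding for a further receptor of nectin-2, had at most 10 counts, and neither passed the filter. Tigit was called in 6 comparisons, including all 4 with MCA-972, where it was highest. The MCA-972 tumors had 1.96, 2.42, 2.48 and 2.57 CPM of Tigit from 80 to 94 counts, and line means elsewhere were 0.277 to 1.09 CPM. MCA-972 was also the line of lowest Nectin2. Its leukocyte markers summed to 13.1 to 40.9 CPM, within the range of the other lines, and its T cell markers summed to 0.546 to 2.22 CPM. The NK cell receptor gene Ncr1 was at 0 in all 4 MCA-972 tumors. None of these tumors carries the letter W, and Ncr1 was also at 0 in 11 of the 14 a tumors of the other lines. MCA-943 has 1 W tumor to 3 a tumors, and the part of the letter in receptor differences between lines was not tested. The part of residual leukocytes in the Tigit level of MCA-972 was tested only through the leukocyte score below. Log2 fold changes for another line minus MCA-972 ran from -1.12 for MCA-969 (SE 0.45, edgeR adjusted p = 0.0372) to -3.07 for MCA-970 (SE 0.53, adjusted p = 2.27e-05). The first missed the threshold without any one of the MCA-969 tumors other than W-2D or of the MCA-972 tumors other than a-1G, at -1.10 to -1.001 (adjusted p of up to 0.0769), and with the leukocyte score as a covariate, at -0.76 (adjusted p = 0.175). MCA-969 W-2D, at 3.37 CPM, stood above the MCA-972 tumors, and the next tumor outside MCA-972 had 1.01 CPM. Crtam was called in 7 comparisons and was highest in MCA-969 (1.05 ± 0.472 CPM), the line with the highest mean of its ligand gene Cadm1, and lowest in MCA-972 (0.115 ± 0.0647 CPM), the line with the lowest. MCA-969 had the lowest median sum of leukocyte markers, 11.4 CPM. A filter at a mean of at least 1 CPM left Crtam with 0 calls, and a link between Crtam and Cadm1 was not tested. Cd96, read with the limit on its filter above, was called in 6 comparisons, each time higher in MCA-943 or MCA-970, where 1 and 2 W tumors reached 1.46 and 1.16 CPM. Its calls numbered 1 with the leukocyte score as a covariate, 2 with the run as a covariate and 3 with limma-voom. They numbered 0 in fits of only the 2 lines compared and with a filter at a mean of at least 1 CPM. Most NK cell and ILC1 markers were also higher in MCA-943 and MCA-970. A mean of at least 1 CPM was reached by 8 of 10 in MCA-943 and 6 of 10 in MCA-970. In the other lines 1 or 2 of 10 reached it. Ncr1 averaged 0.936 and 0.789 CPM in MCA-943 and MCA-970 and at most 0.197 CPM elsewhere. Gzma, coding for a granzyme, averaged 2.36 and 1.42 CPM there and at most 0.286 CPM elsewhere. Eomes and Itga1 went otherwise. Eomes was highest in MCA-948 (3.37 CPM), with 2.90 CPM in MCA-943, 0.928 CPM in MCA-969 and 0.683 CPM in MCA-970. Itga1 was higher in MCA-969 (30.7 CPM) than in MCA-943 (23.6 CPM). The list summed to 29.97 to 63.7 CPM in MCA-943, 64.9 to 108 CPM in MCA-970 and 10.7 to 39.8 CPM in the other lines, most of it Itga1, and its part in the Cd96 differences was not tested.

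The other nectin-like genes mediate adhesion between neurons, glia and other cells. Cadm2 was called in 6, Cadm3 in 6 and Cadm4 in 7 comparisons, together 63.3% of their tests, and 24.5% of the tests of all genes were called. Cadm3 was at 0.387 ± 0.198 CPM in MCA-943 and 0.494 ± 0.183 CPM in MCA-948 but at 4.49 to 6.25 CPM on average in the other 3 lines, with a log2 fold change of -4.05 for MCA-943 minus MCA-972 (SE 0.58, edgeR adjusted p = 9.21e-07). Cadm4 was highest in MCA-969 (2.41 ± 1.05 CPM) and lowest in MCA-972 (0.191 ± 0.0534 CPM; 3.63 for MCA-969 minus MCA-972, SE 0.42, adjusted p = 2.38e-08). Cadm2 was highest in MCA-970 (3.28 ± 2.02 CPM) and lowest in MCA-943 (0.462 ± 0.0857 CPM; MCA-943 minus MCA-970 -2.82, SE 0.47, adjusted p = 7.2e-06). All 3 are low in these tumors next to Pvr or Nectin3.

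**Figure D5:**
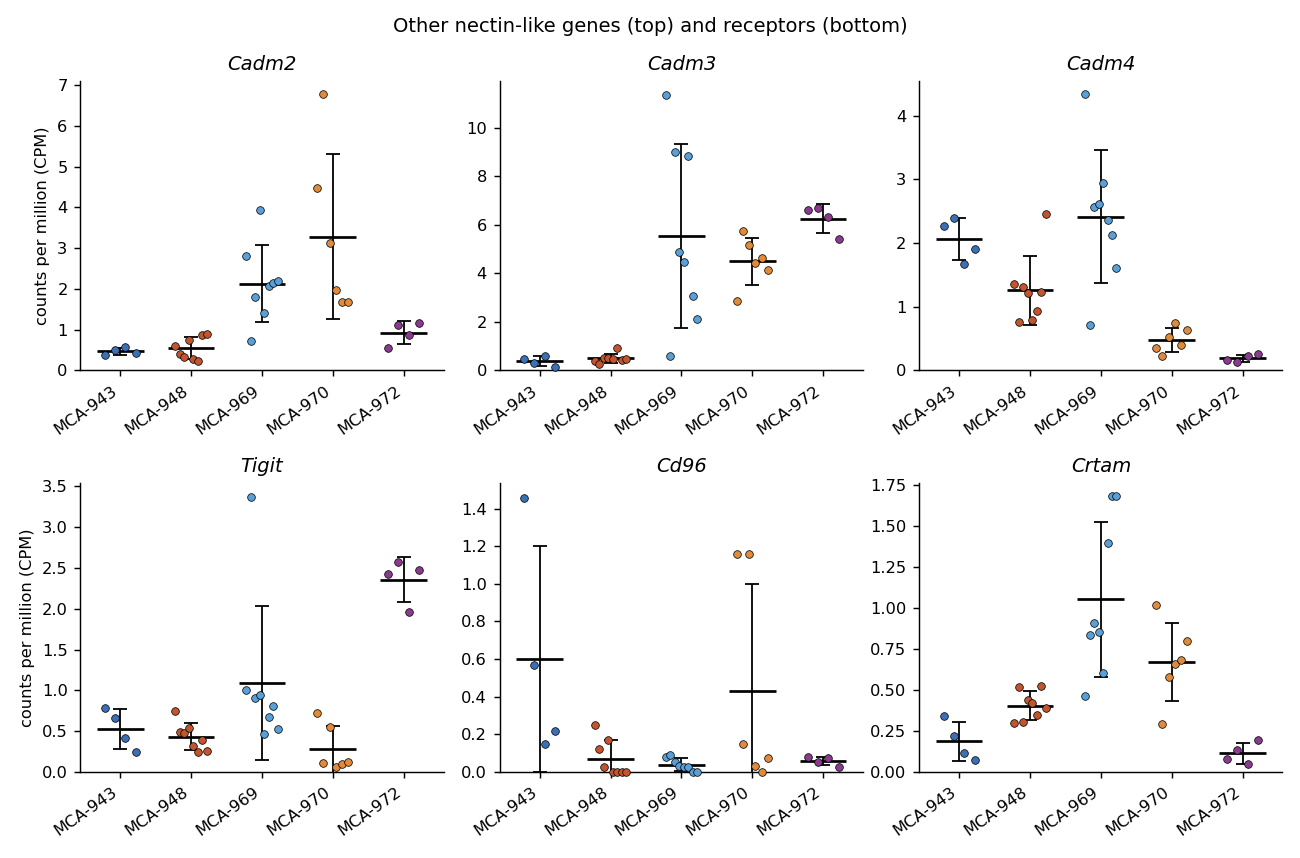
Levels in CPM (linear axes from 0, a separate scale per gene) of the other nectin-like genes in the top row and of the 3 tested receptor genes in the bottom row, with 1 point per tumor, the line mean as a bar and the SD as the error bar. The 4 MCA-972 tumors stand at 1.96 to 2.57 CPM of Tigit, and Cadm3 is under 1 CPM in all MCA-943 and MCA-948 tumors.

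Of 19 genes for partners of nectins inside the cell and in its membrane, 8 were called in no comparison. They included Afdn, coding for the afadin that ties nectins to actin, Pard3 of the polarity complex, Tjp1 and the catenin genes Ctnna1 and Ctnnd1. The 19 genes had 45 calls in 190 tests, or 23.7%, close to the 24.5% of all tests. The median log2 fold change of the list ran from -0.39 (MCA-948 minus MCA-970) to 0.08 (MCA-948 minus MCA-969) over the 10 comparisons, and that of all genes from -0.05 to 0.03. Mpp3, coding for a membrane scaffold that binds nectin-like proteins, was called in 8 comparisons and ran from 0.04995 CPM in MCA-943 to 4.24 ± 1.33 CPM in MCA-969 (log2 fold change -6.29, SE 0.49, edgeR adjusted p = 5.14e-12). Cdh1, coding for E-cadherin, was also called in 8, with 4.58 ± 1.51 CPM in MCA-943 and under 1 CPM on average in the others; its calls numbered 5 without MCA-972 a-1G and 1 with the run as a covariate. Epb41l3, coding for a protein 4.1 that binds nectin-like proteins, was called in 5 and Pdgfrb, coding for a growth factor receptor, in 5. Epb41l3 was highest in MCA-972 (304 ± 13.05 CPM) and lowest in MCA-948 (56.6 ± 18.7 CPM), the line with the lowest Nectin3 and Nectin1. Pdgfrb was lowest in MCA-969 (125 ± 42.3 CPM) and reached 489 ± 98.1 CPM in MCA-970.

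For each tested member, the 3 genes with the most similar log2 CPM over the 30 tumors were found by Pearson's r, as a description. The tumors form 5 line clusters, so r mostly ranks line means, and r of the deviations from the line means is given beside it. Nectin3 went most closely with Loxl3 (r = 0.988, 0.786 within lines), Loxl1 (0.975, 0.664), both coding for lysyl oxidase-like enzymes of matrix cross-linking, and Rbfox1 (0.975, 0.446). Nectin1 went with Sned1 (0.937, 0.580), Mxd4 (0.929, 0.552) and Tagln (0.923, 0.638), the last coding for an actin-binding protein of smooth muscle and myofibroblasts. Pvr went with Zbtb10 (0.893, 0.708), Dlg1 (0.888, 0.575) and Rabgef1 (0.877, 0.734). Nectin2 went with Emb (0.929, -0.01 within lines), Zfp7 (0.922, 0.209) and Morc4 (0.902, -0.20), whose likeness lay in the line means. Cadm1 had no close match, with Ankrd13d first (0.669, 0.537), then Sp6 (0.660, 0.498) and AI427809 (0.650, 0.588).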

How the data were processed

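Bulk RNA-seq of 30 tumors was read from 1 deposited table of gene counts. According to the submitters' processing notes and the methods, the authors aligned reads with STAR 2.5.3a to GRCm38 and assigned them to genes with featureCounts (1.5.2 in the processing notes, another version in the methods); the headers of the deposited counts name UMI duplicate removal. The table also holds exon lengths, used for CPM per kb. Symbols came from GENCODE M21 (48058 of 48440 identifiers, 98 of 98 list symbols). The 6 genes, the gene lists and the tests were chosen with earlier results of these data known.

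Counts were filtered with filterByExpr, scaled by TMM and fitted in R 4.3.3 with edgeR 4.0.16 (glmQLFit and glmQLFTest, robust, line as the group, all tumors in 1 fit); the common biological coefficient of variation was 0.221. Log2 CPM used a prior count of 2. Title letters were compared with line as a covariate. DESeq2 1.42.0 (the authors' tool), limma-voom, other filters and thresholds, covariates and fits that left out tumors were alternatives. The procedure was tested on simulated counts. The exact permutation test was used only for the 5 line means by sensitivity class. Named in full were the 6 genes, other nectin-like genes and receptors with values, partners called in at least 5 comparisons and the 3 genes most correlated with each member; other names were chosen after their values were seen. Nothing says that tumors of 1 line came from separate cultures, so p-values measure the spread between tumors. No 2 libraries agreed within counting noise (lowest ratio to it 14.5 over 83 pairs). Tumors with the same title code in different lines did not deviate together (median correlation 0.01 over 62 pairs), so no pairing by code was seen across lines. Pairing by code within a line was not examined. Each tumor's depth sets a floor of 0.0602 to 0.113 CPM for a count of 0; intervals and floors cover counting error only.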

Additional observations from a re-analysis of the deposited data

Results flagged for a closer look

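In 4 of 30 groups (6 genes in 5 lines) the highest or lowest tumor lay further from the rest of its line than Dixon's critical value at 95%; chance gives about 1 in 20 such groups. Nectin1 was 17.3 CPM in MCA-969 W-2D, against 24.7 to 31.0 CPM in the other 7 tumors of the line. Cadm1 was 0.950 CPM in MCA-948 a-R, where the others had 0 to 0.397 CPM, and 1.91 CPM in MCA-970 a-1D, where the others had 0.0736 to 0.497 CPM. Nectin4 was 0.377 CPM in MCA-970 W-1D, from 13 counts, against 0.0736 to 0.153 CPM in the rest. Tumor W-2D of MCA-969 also had the lowest Nectin3 (32.0 CPM) and Cadm1 (0.0619 CPM) of its line, the highest Tigit (3.37 CPM) of all 30 tumors and the highest epithelial marker sum (1192 CPM).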

How the results depend on the processing

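Over the alternatives tried no fold change of a called gene turned its direction, and Nectin2 kept its 4 calls against MCA-972 in every one of them. Calls of the 6 genes numbered 15; leaving out single tumors gave 14 to 17, the other settings 8 (absolute log2 fold change of at least 2) to 35 (no threshold on the fold change). Without that threshold Pvr was called in 9, Nectin1 in 8 and Nectin2 in 7 comparisons; with the stricter one Pvr and Nectin1 in 0 and Nectin3 in 2. Pvr was also called in 0 with the index set as a covariate, and in 0 to 1 when single tumors were left out. Nectin1 was called in 1 comparison with the run as a covariate. Cadm1, called in 2, was called in 4 with DESeq2 and without the 2 MCA-969 tumors of opposite label, in 1 at an adjusted p under 0.01, in 1 with the run as a covariate and in 1 with the title code as a replicate block; a mean of at least 1 CPM left it untested (0), and single tumors left out gave 2 to 4. The replicate block left 14 calls of the 6 genes in all. Whether the codes stand for a real block is not known, so the changes under it are not read either way. The count of 0 genes called one way in all 6 comparisons of sensitivity classes and the count of 0 between title letters held under all alternatives tried. Among the 35 uncalled fold changes of the 5 tested genes, 35 of 1494 alternative values had the other sign, none beyond 0.401 in size. Depth limits Nectin4, Cadm1 and the receptors, which rest on few counts. The cause of these changes was not tested.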
